A study of Mus musculus with 16 samples.

Results

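The alpha and beta tubulin genes analysed here are Tuba1a, Tuba1b, Tuba1c and Tuba4a (alpha) and Tubb2a, Tubb2b, Tubb3, Tubb4a, Tubb4b and Tubb5 (beta), 10 of the 20436 genes in the tables. They were selected by name as near-identical paralogs, and in part on measured values: that Tuba1c varies most between libraries in both assays was part of the choice, so the spread of Tuba1c is described and not tested. The samples were cerebral cortex of mice on the background FVB.129P2-/Pde6b+ Tyrc-ch //AntJ, aged postnatal day 28 to 35. The 4 genotypes were wild type (WT), Fmr1 single KO (Fmr1KO, which lacks FMRP, the RNA-binding protein missing in fragile X syndrome), Cpeb1 single KO (Cpeb1KO, which lacks CPEB1, another RNA-binding protein) and Fmr1/Cpeb1 double KO (DKO). A cytoplasmic lysate, prepared with cycloheximide and harringtonine, was divided between RNA-seq of rRNA-depleted RNA fragments and ribosome profiling, which sequences the RNA fragments that ribosomes protect (footprints). Each genotype had 2 libraries per assay, numbered 1 and 2 in their titles, 16 libraries in all. The labels state neither how many animals a library holds nor which cells carry the deletions, and nothing says that the libraries came from separate animals, so p-values measure the spread between these libraries, which may be technical.

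Alpha and beta tubulin proteins join into the dimer that polymerises into microtubules, the tracks and struts of axons and dendrites. New tubulin is folded by the prefoldin and CCT chaperones and assembled into dimers by tubulin cofactors, and tubulin mRNAs are degraded during translation when free dimer is in excess, through a recognition of the first amino acids of the nascent chain by TTC5. Tuba1a, Tubb2b and Tubb3 are best known from developing neurons, Tuba4a and Tubb4a from the mature brain, and Tubb4a is also strongly expressed by oligodendrocytes.

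Libraries held 5423925 to 10246482 estimated counts in RNA-seq and 16239703 to 24973757 in footprints, of which the 10 genes took 0.431% to 0.510% and 0.882% to 1.02%. Fmr1 lay at 18.4 and 25.9 CPM (counts relative to the library total after TMM scaling) in Fmr1KO RNA and at 21.5 and 25.2 CPM in DKO RNA, against 87.0 to 116 CPM in the other 4 RNA libraries. Cpeb1 RNA lay at 17.8 CPM on average in Cpeb1KO and at 17.3 CPM in DKO against 38.7 CPM in WT and 32.0 CPM in Fmr1KO, so both targeted genes followed the labels. The 6 neuron markers summed to 4994 to 6399 TPM (a level per length of the gene, scaled within each library) in RNA and 5 oligodendrocyte markers to 1183 to 1524 TPM, while the 3 endothelial markers summed to at most 13.4 TPM.

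The alpha genes Tuba1b, Tuba1a and Tuba1c lie beside each other on chromosome 15 (GRCm38.p6, the mm10 assembly), within 106.677 kb from 98931429 to 99038105 and with no other coding gene between them. Tubb2a and Tubb2b lie within 56.077 kb of each other on chromosome 13, from 34074278 to 34130354. The deposited RNA features of the members were 1332 to 1353 nt long, each 57 nt longer than the footprint feature of the same gene, so the counts cover coding sequence and not UTRs. How fragments shared by paralogs were assigned is not given in the sources used here, and every level of a single paralog below carries that uncertainty.

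The 100 nt before the annotated start of 7 genes are shown, because Tuba1c is set beside its neighbours Tuba1a and Tuba1b, because Tubb2a, Tubb3 and Tubb5 varied together, and because Tubb4a varied apart from them in RNA, though not in footprints. Sequences are from RefSeq on GRCm38.p6, read 5′ to 3′ on the gene's strand, and 9 of the 10 members had an entry. Capitals mark 1 of 3 common promoter motifs, each searched on both strands: the TATA box, written TATAAA in the search, the CCAAT box, searched by those letters, and the GC box, searched as GGGCGG. The windows are chr15:98953502-98953601 (minus strand), chr15:98934391-98934490 (minus strand), chr15:99029791-99029890 (plus strand), chr13:34078009-34078108 (minus strand), chr8:123411453-123411552 (plus strand), chr17:35838302-35838401 (minus strand) and chr17:57087601-57087700 (minus strand), in the order of the lines.
Tuba1a: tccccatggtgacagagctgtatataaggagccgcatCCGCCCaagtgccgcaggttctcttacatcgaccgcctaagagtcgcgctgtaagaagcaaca
Tuba1b: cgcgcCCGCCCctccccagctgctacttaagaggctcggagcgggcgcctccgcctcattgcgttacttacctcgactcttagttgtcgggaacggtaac
Tuba1c: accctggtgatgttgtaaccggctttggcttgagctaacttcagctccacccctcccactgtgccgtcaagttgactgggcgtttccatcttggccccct
Tubb2a: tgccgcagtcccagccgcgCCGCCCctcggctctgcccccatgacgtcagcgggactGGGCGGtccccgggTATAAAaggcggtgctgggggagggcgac
Tubb3: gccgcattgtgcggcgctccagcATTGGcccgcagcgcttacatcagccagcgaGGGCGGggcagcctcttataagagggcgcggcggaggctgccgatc
Tubb5: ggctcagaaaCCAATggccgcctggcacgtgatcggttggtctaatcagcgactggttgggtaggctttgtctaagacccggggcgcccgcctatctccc
Tubb4a: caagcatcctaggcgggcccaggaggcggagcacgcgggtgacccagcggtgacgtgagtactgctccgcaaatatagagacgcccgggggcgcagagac
Of the 3 clustered alpha genes, the windows of Tuba1a and Tuba1b each hold 1 GC box and that of Tuba1c holds none of the 3 motifs. The window of Tubb2a holds a TATA box and 2 GC boxes, that of Tubb3 a CCAAT and a GC box, and that of Tubb5 a CCAAT box, so the 3 genes share no single one of these motifs there. Over the longer windows from 250 nt before to 50 nt after the start, TATAAA was found in 2 of 9 members and 13.6% of 32851 promoters, CCAAT in 5 of 9 and 37.4%, and GGGCGG in 7 of 9 and 35.7%. In these longer windows Tubb2a, Tubb3 and Tubb5 each held 2 GC boxes, as did Tuba1b, Tuba4a and Tubb4b. Tuba1a held 1, and Tubb4a and Tuba1c held none. These are matches of letters, not bound sites.

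Per length, Tubb4a, Tuba4a and Tubb5 were the most abundant tubulin mRNAs of this cortex. In RNA, Tubb4a averaged 952 ± 146 TPM (SD, n = 8 libraries), Tuba4a 897 ± 40.6 and Tubb5, the broadly expressed beta tubulin, 876 ± 64.2. These 3 were not ordered beyond their spread: Tubb4a exceeded Tuba4a in 6 of 8 libraries, and Tuba4a exceeded Tubb5 in 6 of 8. Tubb3, the neuron-specific beta tubulin, followed at 687 ± 44.0 TPM, Tubb2a at 620 ± 44.4 and Tubb4b at 558 ± 50.5, each above the next in 8 of 8 libraries. Tuba1a, the alpha tubulin most tied to cortical development, averaged 261 ± 26.8 TPM and Tuba1b 102 ± 5.56 TPM. The lowest were Tuba1c, with 0.180 to 109 TPM, and Tubb2b, the paralog of Tubb2a, with 43.2 ± 4.40 TPM.

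Footprint levels kept the same first 3 and the same last 4 genes. Tubb4a averaged 1704 ± 117 TPM in footprints, Tuba4a 1572 ± 76.9, Tubb5 1339 ± 85.9, Tubb4b 951 ± 42.1, Tubb3 874 ± 74.4, Tubb2a 741 ± 42.1 and Tuba1a 524 ± 27.1 TPM, each above the next in 8 of 8 libraries. Tubb4b stood above Tubb3 and Tubb2a in footprints and below both in RNA. Tuba1b averaged 84.6 ± 11.6 TPM and Tubb2b 58.3 ± 6.15 TPM in footprints, and Tuba1c ranged from 0.130 to 165 TPM. Tuba4a made up 68.7% ± 1.46 of the summed alpha TPM in RNA and 69.9% ± 1.99 in footprints, so 1 gene held most of the alpha level as estimated. Beta tubulin was divided more evenly: Tubb4a made up 25.4% ± 3.12 of the beta sum in RNA and 30.1% ± 0.911 in footprints, and Tubb5 23.4% ± 0.868 and 23.6% ± 0.498. The beta sum was 2.86 ± 0.111 times the alpha sum in RNA and 2.52 ± 0.129 times in footprints (n = 8 libraries each). These shares and sums also depend on how reads that fit several genes were handled, which is not given.

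**Figure D1:**
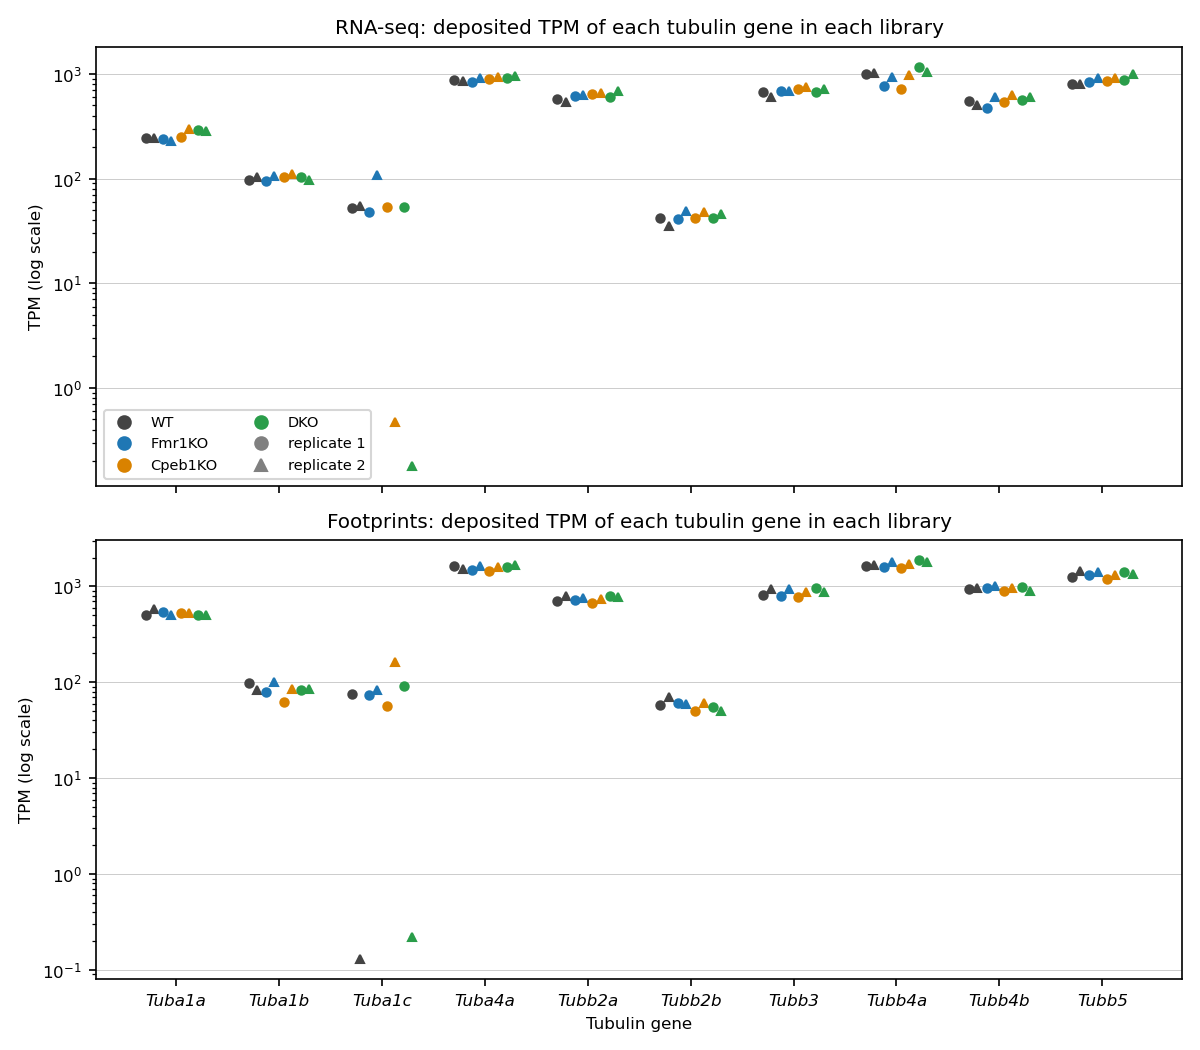
TPM of each of the 10 tubulin genes (log scale) in the 8 RNA-seq libraries (upper panel) and 8 footprint libraries (lower panel), 1 point per library, coloured by genotype, circles for replicate 1 and triangles for replicate 2. Tuba1c falls to between 0.130 and 0.470 TPM in 4 libraries, all of replicate 2, while each other gene stays within a narrow band.

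Other members of the tubulin superfamily were far lower. Tuba8 averaged 15.7 TPM in RNA and 17.1 TPM in footprints, and Tubb6 5.13 and 0.895 TPM. The gamma tubulins, which nucleate microtubules at centrosomes and other organising sites, averaged 33.2 TPM (Tubg1) and 29.6 TPM (Tubg2) in RNA, and delta and epsilon tubulin (Tubd1 and Tube1) 10.2 and 3.02 TPM. Tuba3a, Tuba3b, Tubal3 and Tubb1 were at most 0.220 TPM in any of the 16 libraries. Of these 10 genes 6 passed the filter on low counts, and none of the 6 was called in any of the 12 comparisons below by edgeR or DESeq2, with 0 to 2 at an unadjusted p under 0.05 per comparison.

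Tuba1c was well covered in 12 of 16 libraries and nearly absent in the other 4. Its RNA lay at 47.8 and 49.4 CPM in WT, at 45.6 and 101 CPM in Fmr1KO, at 51.2 and 0.465 CPM in Cpeb1KO and at 46.9 and 0.159 CPM in DKO, replicate 1 first. Behind the low RNA values stood 3 counts in Cpeb1KO and 1 count in DKO, against 274 to 650 counts in the other 6 RNA libraries. Its footprints lay at 92.2 and 0.138 CPM in WT, at 91.6 and 101 CPM in Fmr1KO, at 70.0 and 197 CPM in Cpeb1KO and at 112 and 0.248 CPM in DKO. The low footprint values came from 3 counts in WT and 4 counts in DKO, against 1659 to 4880 counts in the other 6.

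All 8 libraries of replicate 1 had Tuba1c at 45.6 to 51.2 CPM in RNA or 70.0 to 112 CPM in footprints, and all 4 near-absent libraries were of replicate 2. The states of the assays did not match. WT replicate 2 had 274 RNA counts of Tuba1c and 3 footprint counts, and Cpeb1KO replicate 2 had the highest footprint level of all 8 and only 3 RNA counts. DKO replicate 2 had it nearly absent in both assays, and Fmr1KO had it in both. No genotype had Tuba1c nearly absent in both of its replicates of an assay. Both near-absent RNA libraries came from genotypes that lack Cpeb1. With 2 libraries per genotype and assay, the part of genotype in this pattern was not tested. The labels do not say that RNA and footprint libraries with the same number came from the same lysate.

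The summed level of the 3 clustered alpha genes had a smaller relative spread than Tuba1c alone. Tuba1c averaged 42.9 of the 379 CPM of that sum in RNA and 83.1 of 832 CPM in footprints. The coefficient of variation over the 8 libraries was 74.8% for Tuba1c RNA and 76.5% for its footprints, against 5.46% and 7.11% for the sum of Tuba1a, Tuba1b and Tuba1c. Tuba1a and Tuba1b without Tuba1c had a coefficient of variation of 7.31% in RNA and 3.68% in footprints, so adding Tuba1c lowered the relative spread in RNA and raised it in footprints. In RNA the sum of the 3 genes ranged from 352 to 413 CPM, with 383 CPM in Cpeb1KO replicate 2 and 352 CPM in DKO replicate 2, the near-absent libraries. In footprints it ranged from 727 to 938 CPM, with 807 CPM in WT replicate 2 and 727 CPM in DKO replicate 2. Tuba1a RNA was highest in the same 2 libraries in which Tuba1c RNA was nearly absent, at 279 CPM in Cpeb1KO replicate 2 and 263 CPM in DKO replicate 2, against 214 to 259 CPM in the other 6, and it was lowest, at 214 CPM, in Fmr1KO replicate 2, where Tuba1c was highest. In footprints, Tuba1a was highest in WT replicate 2 at 706 CPM, a library with Tuba1c nearly absent, while DKO replicate 2, the other such library, had 622 CPM, within the 610 to 677 CPM of the remaining 6. Tuba1b showed no such opposition, with 104 and 89.2 CPM in the RNA libraries with Tuba1c nearly absent and 88.7 to 101 CPM in the other 6.

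**Figure D2:**
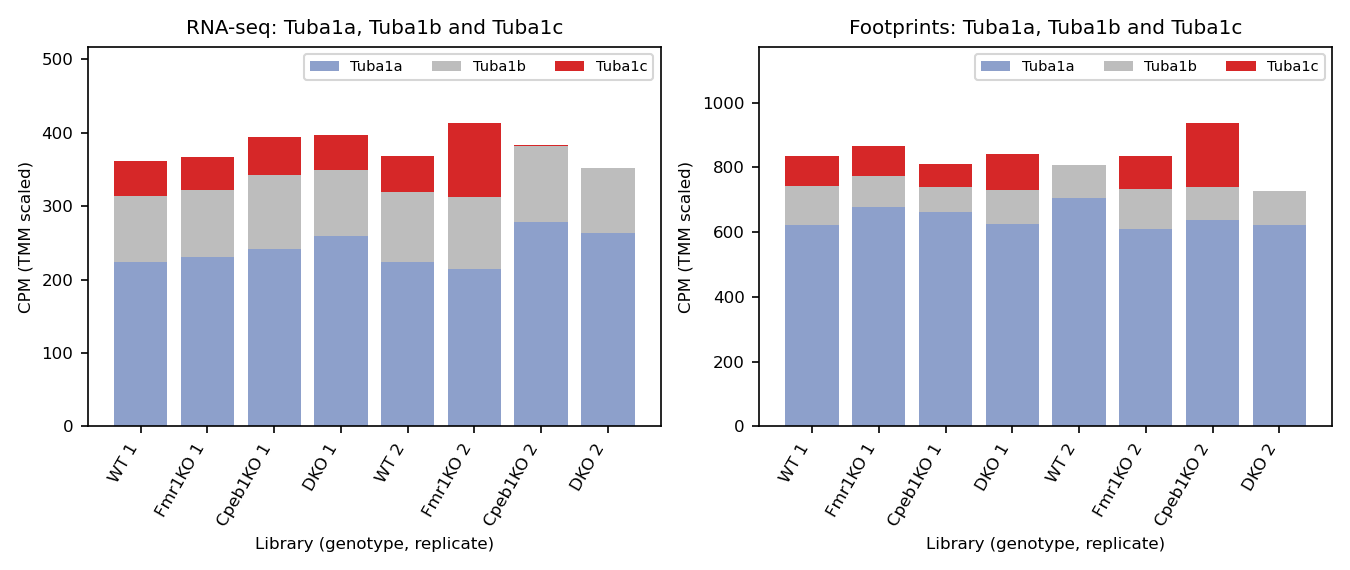
Stacked CPM of Tuba1a, Tuba1b and Tuba1c in each RNA-seq library (left) and footprint library (right), replicate 1 libraries first, bars starting at 0. Tuba1c (red) is near 0 in RNA of Cpeb1KO 2 and DKO 2 and in footprints of WT 2 and DKO 2, while the total stays between 352 and 413 CPM in RNA and between 727 and 938 CPM in footprints.

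Swings of this size within a genotype were rare. Of the 9120 genes that averaged 100 counts or more in RNA, 2 differed by 10-fold or more between the libraries of a genotype, counts under 3 being set to 3. These were Tuba1c and Npcd, chosen here by their values. Among 10668 such genes in footprints, 2 genes did so, Tuba1c and Tlk1. Tuba1c ranked first in both assays, which restates its choice by spread between libraries and is no separate result. That it was also the gene that passed 10-fold in 2 genotypes rests on the same values and is no separate result either. The other 9 members had a coefficient of variation of 4.96% to 12.8% in RNA and of 3.79% to 13.1% in footprints.

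The genes whose pattern was most like that of Tuba1c were ranked by Pearson r of log2 CPM over the 8 libraries of an assay, after removing the mean of each replicate number. The lower r of both assays was taken for each gene, with 13027 genes compared. The first 5 were Clic6 (0.88), F5 (0.86), Kdelr1 (0.83), Kl (0.82) and Gpr83 (0.82), and their r values are descriptions with no test. For the other members the closest gene had a value from 0.78 (Tubb4b) to 0.96 (Tubb4a). Values of this size were thus not particular to Tuba1c. RNA levels ran from 26.4 to 31.6 CPM for Kdelr1, an endoplasmic reticulum retention receptor, from 10.4 to 21.5 CPM for Gpr83, from 3.77 to 9.38 CPM for Kl, from 2.17 to 7.58 CPM for Clic6 and from 0 to 1.80 CPM for F5, so none but F5 approached 0. Clic6 and Kl are known from the choroid plexus, the tissue that makes cerebrospinal fluid. The choroid and ependymal markers Ttr, Foxj1 and Ccdc153 summed to 39.2 to 789 TPM over the RNA libraries and to 50.5 to 415 TPM over the footprint libraries, most of it Ttr, and none of the 3 was at 0 in all libraries of an assay. Ttr was at 124 and 34.0 TPM in the RNA libraries with Tuba1c nearly absent, Cpeb1KO replicate 2 and DKO replicate 2, and at 139 to 782 TPM in the other 6. Foxj1 RNA was at 2.68 and 1.65 TPM in the same libraries and at 2.57 to 5.31 TPM in the other 6. Ccdc153 RNA was at 3.08 and 3.56 TPM against 1.27 to 3.82 TPM, so both of these markers overlapped. In footprints, Ttr was at 60.1 and 117 TPM in the libraries with Tuba1c nearly absent and at 46.8 to 410 TPM in the other 6, so the groups overlapped there. The part of choroid tissue in the Tuba1c values was not tested.

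Tubb2a, Tubb3 and Tubb5 varied together across libraries. By the same measure, each of Tubb2a and Tubb5 was the other's closest gene of 13026, with r of 0.95 in both assays. Tubb3 and Tubb5 had r of 0.85 in RNA and 0.86 in footprints, and Tubb2a and Tubb3 0.96 and 0.84. In RNA this was shared by Tuba4a, with r of 0.93 to 0.95 with Tubb2a, Tubb3 and Tubb5, and by Tubb2b, with 0.80 to 0.84. In footprints those r were 0.19 to 0.37 for Tuba4a and 0.13 to 0.32 for Tubb2b. Of the 36 pairs among the 9 members other than Tuba1c, 30 had an r above 0 in RNA and 29 in footprints. The share over pairs of other genes was not computed, so these counts are not read as a trait of tubulins. Outside Tubb2a, Tubb3 and Tubb5, the closest of these members ranked from 33 (for Tubb4b) to 3354 (for Tubb4a) among 13026 genes. Tubb4a stood apart from these 3 genes in RNA and not in footprints: its r with Tubb2a was -0.49 in RNA and 0.73 in footprints, with Tubb3 -0.51 and 0.82, and with Tubb5 -0.23 and 0.67. In footprints Tuba1a had the opposite pattern to Tuba4a (r of -0.85) and to Tubb4a (-0.60), whereas in RNA its r with them was 0.55 and 0.32. Each r covers 8 libraries that share their scaling.

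**Figure D3:**
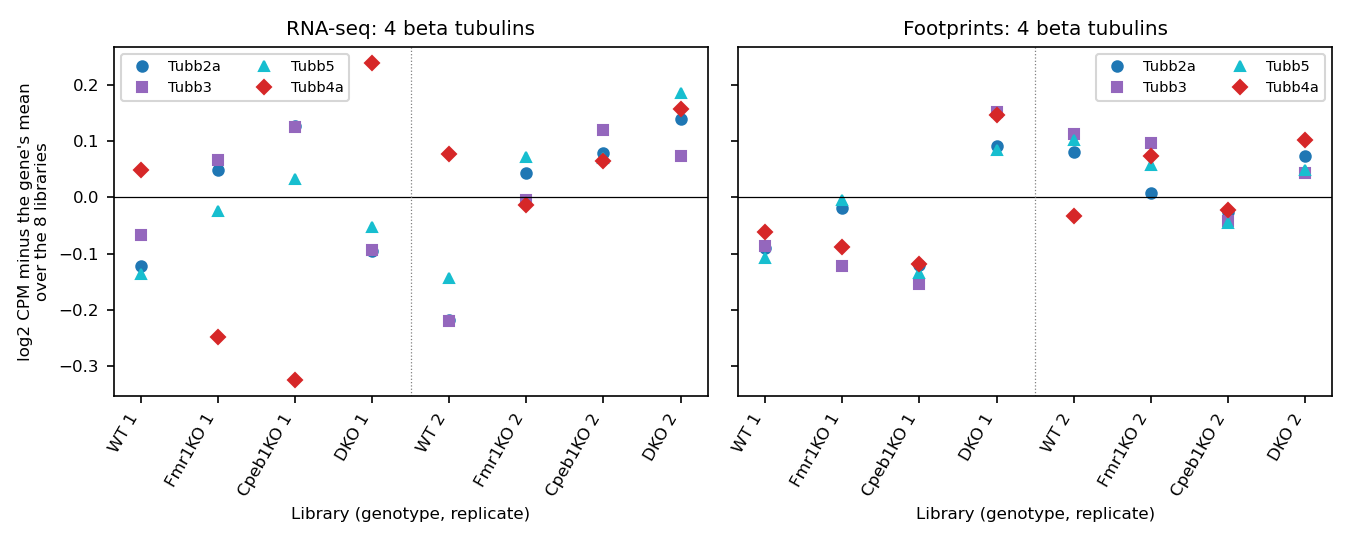
log2 CPM of Tubb2a, Tubb3, Tubb5 and Tubb4a relative to each gene's mean over the 8 libraries of the assay, with replicate 1 libraries left and replicate 2 right of the dotted line. In RNA, Tubb4a (red) lies below the other 3 genes in Fmr1KO 1 and Cpeb1KO 1 and above them in DKO 1, WT 1 and WT 2, whereas in footprints the 4 genes move within a narrower range.

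Changes with genotype were then tested with edgeR over all genes, for the 9 members other than Tuba1c. A gene counts as called at a Benjamini-Hochberg adjusted p under 0.05. None of the 9 was called in any of the 12 comparisons. With Tuba1a, Tuba1b and Tuba1c summed into 1 feature, and likewise Tubb2a with Tubb2b and Tubb4a with Tubb4b, edgeR and DESeq2 each called 0 in all 12. By edgeR the sum of Tubb2a and Tubb2b had an unadjusted p under 0.05 in 3 of them and that of Tubb4a and Tubb4b in 1. Comparisons with WT share the WT libraries, so their values are given side by side and not as repeats of each other.

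In RNA, loss of Fmr1 left no member called, against a background of 0.00753% of 13287 genes. The 9 log2 changes in Fmr1KO ran from -0.19 (Tubb4a) to 0.26 (Tubb2b) with a median of 0.07, and none had an unadjusted p under 0.05. In Cpeb1KO, where the background was 0%, 8 of 9 changes were above 0, as were 53.7% of all genes. The median of the 9 was 0.19 beside 0.02 for all genes. Several members varied together, so such counts of signs do not rest on 9 separate genes. Tubb2a RNA was 618 and 598 CPM in Cpeb1KO and 521 and 487 CPM in WT, and Tubb3 RNA was 692 and 690 CPM against 607 and 545 CPM. The log2 changes were 0.27 ± 0.11 and 0.26 ± 0.11 (SE), and these were the 2 members at an unadjusted p under 0.05, as were 11% of all genes. The adjusted p by edgeR was 0.43 for each. In DKO against WT the background was 0.00753%, and 8 of 9 changes were above 0, as were 49.7% of all genes. The median of the 9 was 0.14, and none reached an unadjusted p under 0.05. DESeq2 likewise called 0 of 9 in each of these 3 comparisons.

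Tubb4a RNA had the opposite sign to the other beta tubulins in the single knockouts, short of the threshold. It lay at 890 and 907 CPM in WT, at 724 and 852 CPM in Fmr1KO, at 686 and 899 CPM in Cpeb1KO and at 1015 and 959 CPM in DKO. Both DKO libraries were above the other 6, and the single knockouts overlapped WT only through Cpeb1KO replicate 2. The design has a further comparison, used in the authors' own tables, of both single knockouts against WT and DKO together. There the log2 difference of Tubb4a was -0.26 ± 0.082 (SE), 95% interval -0.44 to -0.09, with an unadjusted p of 0.00593 and an adjusted p of 0.0634 by edgeR, so it was not called. This was the 1 member of 9 at an unadjusted p under 0.05, beside a background of 7.31% of genes called and 25.7% at an unadjusted p under 0.05. DESeq2 called Tubb4a in this comparison (adjusted p 0.0249), as did edgeR without the filter on low counts (0.0172), and in the authors' deposited table it has a log2 difference of -0.22 and an adjusted p of 0.0116. Leaving out RNA replicate 2 of WT, Cpeb1KO or DKO also brought Tubb4a past the threshold in edgeR, at adjusted p of 0.0390, 0.0388 and 0.0447. In all, 5 of 12 alternatives called Tubb4a and 7 did not, with adjusted p up to 0.227 and log2 differences from -0.31 to -0.20. Without DKO replicate 2 Tubb2a (0.21, adjusted p 0.0469) and the sum of Tubb2a and Tubb2b (adjusted p 0.0463) were called as well. The other 8 members had log2 differences from -0.01 to 0.17 with all libraries.

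Since oligodendrocytes express Tubb4a, 5 markers of those cells (Mbp, Mog, Mag, Mobp and Cnp) are given beside it. Their summed RNA level was 1238 to 1455 TPM in WT, 1183 to 1186 TPM in Fmr1KO, 1242 to 1364 TPM in Cpeb1KO and 1226 to 1524 TPM in DKO, and none of the 5 was at 0. The sums of both Fmr1KO libraries lay below those of the other 6. The sums of Cpeb1KO lay within those of WT. Tubb4a RNA was 686 and 899 CPM in Cpeb1KO and 890 and 907 CPM in WT, so it overlapped WT too. Their part in the difference of Tubb4a was not tested, and in bulk tissue fewer cells of a type and less RNA per cell cannot be told apart.

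In footprints of the single knockouts no member was called. Against WT the 9 log2 changes ran from -0.07 to 0.06 in Fmr1KO, where 0.0581% of 13774 genes were called and no member had an unadjusted p under 0.05. In Cpeb1KO, with a background of 0.0799%, all 9 changes were below 0, while 49.5% of all genes were above 0. The median of the 9 was -0.07 beside -0.0011 for all genes. The lowest was Tuba1b, at 78.3 and 104 CPM in Cpeb1KO and 120 and 101 CPM in WT. Those libraries overlapped, and the log2 change was -0.30 ± 0.13 (SE), the 1 member at an unadjusted p under 0.05, where 3.88% of all genes were (adjusted p 1.00 by edgeR; DESeq2 called 0 of 9).

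In DKO footprints no member was called. The background was 2.65% of genes against WT, 5.6% against Cpeb1KO and 0.334% against Fmr1KO, and 21%, 24.6% and 15.9% of all genes had an unadjusted p under 0.05. Of the 9 members 2, 4 and 0 did, so the 2 of 9 against WT were near the share of all genes. Tubb4a footprints lay at 2278 and 2208 CPM in DKO, above all 6 other libraries, which held 1972 and 2013 CPM (WT), 1937 and 2165 CPM (Fmr1KO) and 1897 and 2028 CPM (Cpeb1KO). The log2 change was 0.17 ± 0.066 (SE) against WT, with an adjusted p of 0.163 by edgeR, and 0.19 ± 0.066 against Cpeb1KO, with an adjusted p of 0.0963. In the authors' deposited tables Tubb4a is called in DKO against Cpeb1KO, with a log2 change of 0.17 and an adjusted p of 0.0342. Without footprint replicate 2 of WT, edgeR called it too (adjusted p 0.0471), 1 of 13 alternatives, with adjusted p up to 0.504. The 5 oligodendrocyte markers summed to 2285 to 2520 TPM in DKO footprints, to 2339 to 2358 TPM in WT and to 2383 to 2544 TPM in Cpeb1KO, so DKO overlapped both, and their part in the Tubb4a values was not tested.

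Tubb2b footprints were 67.5 and 62.5 CPM in DKO and 70.4 and 83.7 CPM in WT. The log2 change of -0.24 ± 0.10 (SE) had an adjusted p of 0.207 by edgeR. Against Cpeb1KO, the genes Tubb2a, Tubb3 and Tubb5 had log2 changes of 0.16, 0.20 and 0.16 in DKO, each at an unadjusted p under 0.05, with adjusted p of 0.169, 0.146 and 0.176 by edgeR. Tubb5 lay at 1715 and 1674 CPM in DKO and at 1473 and 1569 CPM in Cpeb1KO. By DESeq2, 0 of 9 members were called in each of the 5 footprint comparisons.

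**Figure D4:**
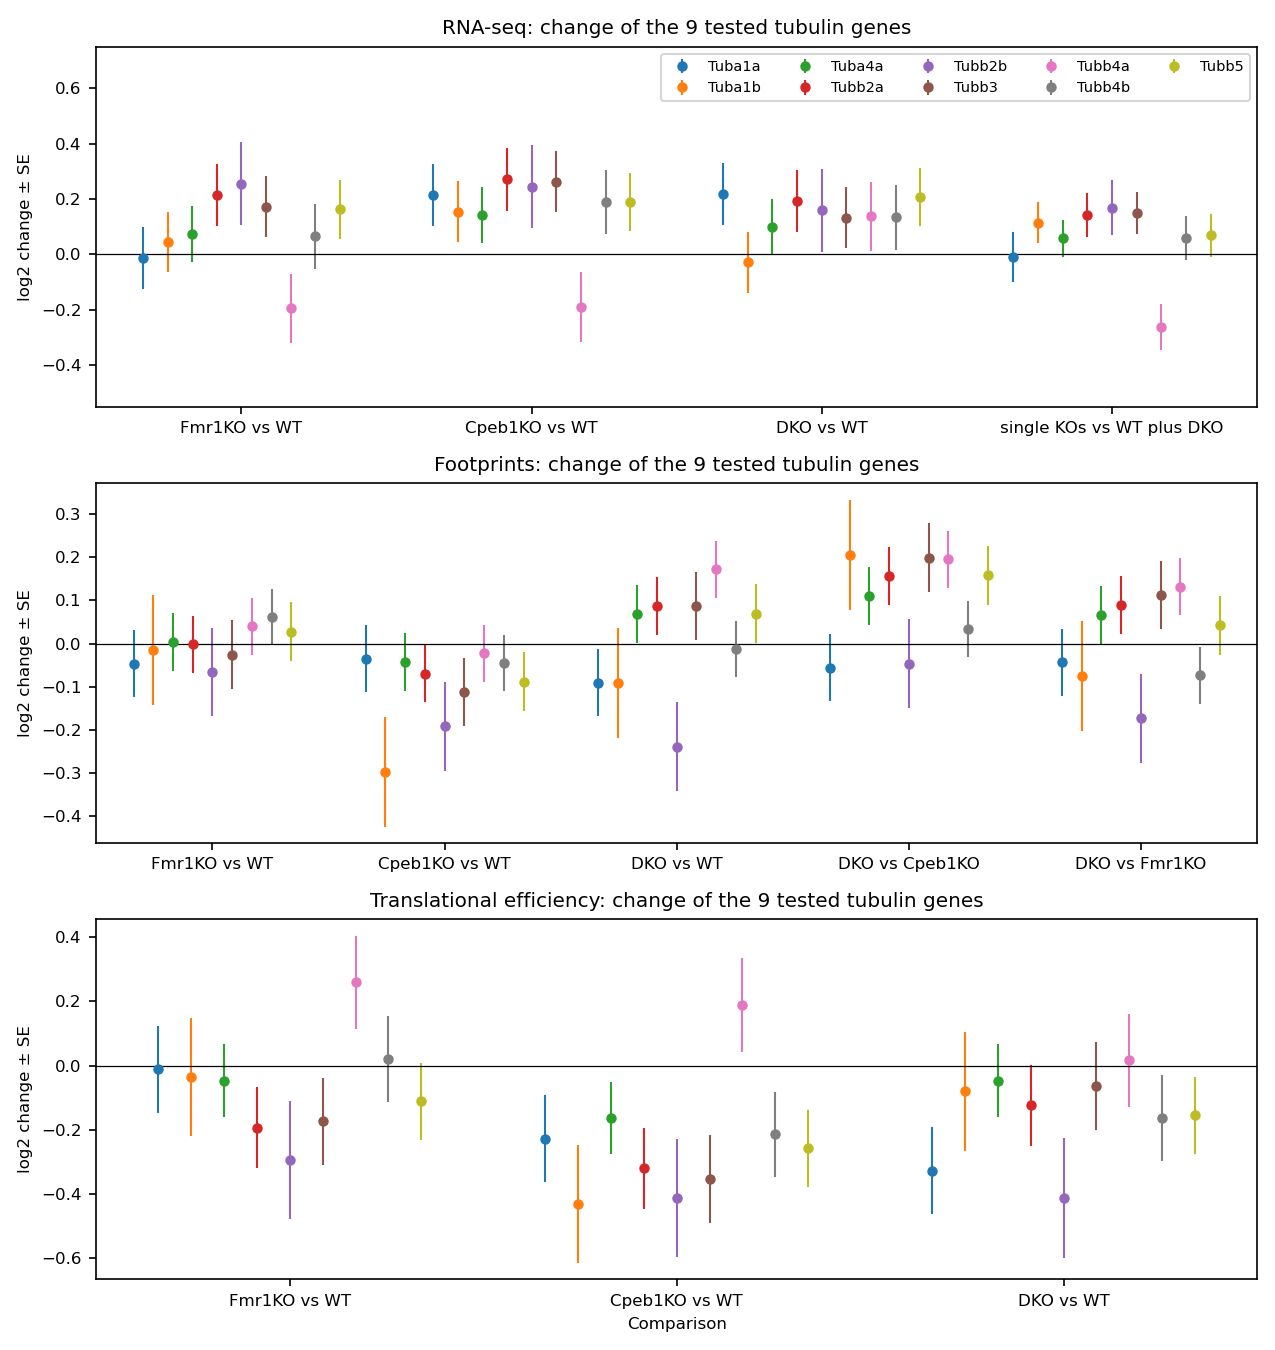
log2 change with its standard error for the 9 tested tubulin genes in each comparison of RNA-seq (top), footprints (middle) and translational efficiency (bottom), with a line at 0. Tubb4a (pink) lies below 0 in RNA and above 0 in translational efficiency in both single knockouts, and most other members lie below 0 in translational efficiency of Cpeb1KO and DKO.

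Translational efficiency, the change of footprints relative to that of RNA, was tested as an interaction over all 16 libraries. No member was called, beside backgrounds of 0.0154% (Fmr1KO), 0% (Cpeb1KO) and 0.00768% (DKO) of 13027 genes, and DESeq2 also called 0 of 9 in each. In Cpeb1KO 8 of 9 changes were below 0, while 50.3% of all genes were above 0. Above 0 were 1 of 9 in DKO and 2 of 9 in Fmr1KO, beside 47.7% and 50.0% of all genes. In Cpeb1KO the median of the 9 was -0.26 beside 0.0021 for all genes. By edgeR 9.4% of all genes had an unadjusted p under 0.05, and so did 5 members. These were Tuba1b (-0.43 ± 0.18 SE), Tubb2b (-0.41 ± 0.18), Tubb3 (-0.35 ± 0.14), Tubb2a (-0.32 ± 0.13) and Tubb5 (-0.26 ± 0.12), with adjusted p from 0.478 to 0.529. Footprint TPM over RNA TPM, paired by genotype and number, was highest in WT replicate 2 for Tubb2a, Tubb2b, Tubb3 and Tubb5. For Tuba1b it was highest in WT replicate 1. On the log2 scale WT replicates 1 and 2 held 0.27 and 0.54 for Tubb2a and 0.46 and 0.98 for Tubb2b. They held 0.30 and 0.66 for Tubb3 and 0.62 and 0.85 for Tubb5. The authors' deposited tables list Tubb3 (-0.31, adjusted p 0.0145) and Tubb2a (-0.29, adjusted p 0.0317) as called in Cpeb1KO. Tubb4a was the exception, at 0.19 in Cpeb1KO and 0.26 in Fmr1KO. In DKO, Tubb2b (-0.41 ± 0.19) and Tuba1a (-0.33 ± 0.14) had an unadjusted p under 0.05, as did 3.5% of all genes, each with an adjusted p of 1.00.

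Across pairs of a footprint and an RNA library, tubulin mRNAs carried more footprints per RNA than most genes. The footprint TPM over the RNA TPM of a library pair with the same genotype and number had a median over 8 pairs of 2.09 for Tuba1a, above 97.8% of 13027 genes. Tuba4a had a median ratio of 1.77, Tubb4a 1.73 and Tubb4b 1.71, which were not ordered beyond their spread. Tubb5 followed with 1.54, Tubb2b with 1.30, Tubb3 with 1.23 and Tubb2a with 1.18, and Tuba1b was lowest at 0.823, above 64.6% of genes. On the log2 scale the median gene lay at -0.63. The near-identical neighbours Tuba1a and Tuba1b thus differed most among these 9 genes: Tuba1a exceeded Tuba1b in 8 of 8 pairs, by 1.29 ± 0.29 (SD) on the log2 scale. How fragments shared by these paralogs were assigned is not given, and the part of that assignment in this difference was not tested. The RNA level of Tuba1a was 261 TPM and its footprint level 524 TPM, whereas Tuba1b had 102 and 84.6 TPM.

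**Figure D5:**
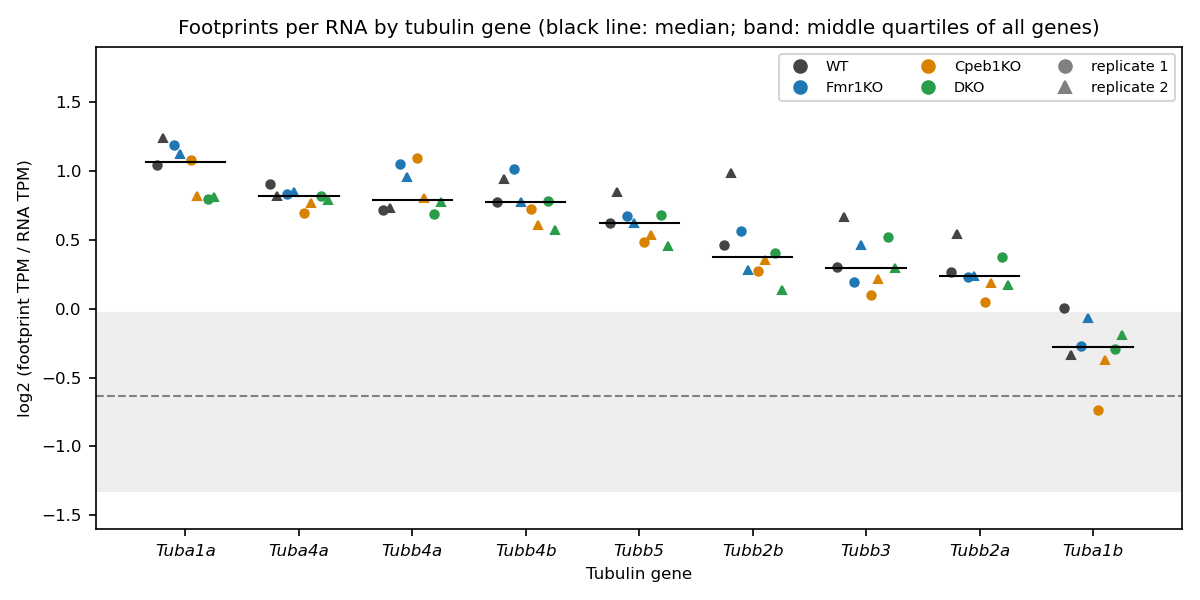
log2 of footprint TPM over RNA TPM for 9 tubulin genes in the 8 library pairs, coloured by genotype, with a black line at each median, and the median (dashed line) and middle quartiles (grey band) of 13027 genes. All values of 8 genes lie above the band, and Tuba1b lies mostly within it.

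Among the genes that fold new tubulin, chaperone subunits were called in RNA. In the comparison of single knockouts with WT and DKO, 5 of 21 tested folding genes were higher in RNA and 0 lower by edgeR (13 at an unadjusted p under 0.05), with a median log2 difference of 0.23 beside 0.03 for all genes. Of all genes in that comparison 7.31% were called, 295 higher and 676 lower, and 25.7% had an unadjusted p under 0.05. The called folding genes were the prefoldin subunit Vbp1 (0.38 ± 0.10 SE) and the CCT chaperonin subunits Cct4 (0.33 ± 0.077), Tcp1 (0.30 ± 0.067), Cct6a (0.24 ± 0.067) and Cct3 (0.23 ± 0.066), with adjusted p from 0.0184 to 0.0497. Cct4 RNA was 229 and 220 CPM in Fmr1KO, 245 and 210 CPM in Cpeb1KO, 189 and 183 CPM in WT and 195 and 151 CPM in DKO. Tcp1 RNA was 454 and 407 CPM in Fmr1KO, 477 and 381 CPM in Cpeb1KO, 364 and 339 CPM in WT and 372 and 316 CPM in DKO. DESeq2 called 6, these 5 and Cct5. The edgeR count fell to 0 without RNA replicate 1 of WT, Fmr1KO, Cpeb1KO or DKO, to 1 without Fmr1KO replicate 2, and to 0 without the replicate block. In footprints, Cct4 was lower in DKO than in Cpeb1KO (-0.30 ± 0.073 SE, adjusted p 0.0367 by edgeR), at 295 and 253 CPM against 352 and 320 CPM, the 1 folding gene of 21 called there, a share near the 5.6% of all genes. That call was lost on leaving out any 1 of the Fmr1KO, Cpeb1KO or DKO libraries.

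A pair of stathmin genes was called in the DKO footprints. Of 11 stathmin and severing genes, 2 were higher in DKO than in WT and than in Cpeb1KO, where 2.65% and 5.6% of all genes were called in either direction. At an unadjusted p under 0.05 were 2 and 4 of the 11, against 21% and 24.6% of all genes. Stmn1, which binds tubulin dimers and promotes disassembly, had 1458 and 1742 CPM in DKO footprints against 1126 and 1196 CPM in WT and 1142 and 1090 CPM in Cpeb1KO. Its log2 changes were 0.46 ± 0.084 (SE, adjusted p 0.0200 by edgeR) and 0.52 ± 0.084 (adjusted p 0.0110). Stmn3, a neuronal stathmin, had 953 and 1183 CPM in DKO against 855 and 820 CPM in WT and 832 and 827 CPM in Cpeb1KO, with log2 changes of 0.35 ± 0.084 (adjusted p 0.0491) and 0.36 ± 0.084 (adjusted p 0.0306). Over 5 other fits with every library, Stmn3 kept the call in 3 against WT, losing it without the replicate block and with only the 2 genotypes compared, and in 4 against Cpeb1KO, losing it without the block. Against Fmr1KO edgeR called 0 of the 11, with 2 at an unadjusted p under 0.05 and every adjusted p at 0.0520 or more, and DESeq2 called Stmn1 and Stmn3. DKO replicate 2 held the higher value of both genes. Without it the change against WT was 0.31 for Stmn1 (adjusted p 0.199) and 0.18 for Stmn3 (adjusted p 0.375). Against Cpeb1KO it was 0.37 (adjusted p 0.107) and 0.19 (adjusted p 0.269). Without either Cpeb1KO library the Stmn1 and Stmn3 changes against Cpeb1KO also lost the call, at adjusted p from 0.109 to 0.300, and Stmn3 against WT lost it without WT replicate 2, either Fmr1KO, either Cpeb1KO library or DKO replicate 2. Tpgs1, a subunit of the tubulin polyglutamylase, was the 1 called gene of 24 tested tubulin-modifying genes, a share not above the 5.6% of all genes, and was higher in DKO than in Cpeb1KO footprints (0.48 ± 0.12 SE, adjusted p 0.0429), at 85.6 and 103 CPM against 56.0 and 80.3 CPM. The call of Tpgs1 was lost without Fmr1KO replicate 2 and without any 1 of the Cpeb1KO and DKO libraries. The nucleation genes and the autoregulation genes (Ttc5, Scaper, Cnot1 and Cnot11) had 0 calls by edgeR and DESeq2 in all 12 comparisons, with at most 3 and 1 members at an unadjusted p under 0.05.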

How the data were processed

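The deposited tables, 1 per library, hold estimated counts per gene, which the authors made with RSEM, per the file headers, and TPM, which the authors scaled within each library. The submitters' processing notes name cutadapt, Bowtie2, TopHat2, RSEM, DESeq2 and the build mm10, without versions or the handling of reads that fit several genes. The authors also deposited tables of comparisons with a log2 change and an adjusted p-value per gene (DESeq2, and Xtail for translational efficiency, per the series' design text). The signs of the authors' RNA tables were turned where they held WT minus knockout.

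Expected counts were rounded and tested in R 4.3.3 with edgeR 4.0.16, by TMM scaling, filterByExpr with a minimum of 10 counts, the quasi-likelihood test and the replicate number as a block, over all 8 libraries of an assay. Translational efficiency was the interaction of assay and genotype over all 16 libraries. Adjusted p-values (Benjamini-Hochberg) cover all genes of a table, 13287 in RNA, 13774 in footprints and 13027 for translational efficiency. Levels are the deposited TPM. CPM uses TMM factors, log2 CPM a prior count of 2, and footprints per RNA a pseudocount of 0.01 TPM. Samples were grouped by their titles.

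The members, the gene lists and the tests were chosen with earlier results of these data known. All 10 members and other tubulins are named, as are called genes of the lists. The rule allowed 3 list genes per direction, and Cct6a and Cct3 were named beyond it after their values were seen. One oligodendrocyte marker of the list is not reported here and is left out of the sums. The alternatives for list genes were chosen after seeing the data. The fitting script was tested on simulated counts. Counting error is larger in RNA-seq, the shallower assay.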

Additional observations from a re-analysis of the deposited data

How the results depend on the processing

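The 9 members gave 108 values over the 12 comparisons. None was called in the fit as reported, without the replicate block, with RLE size factors, or with only the 2 genotypes compared (99 values). DESeq2 and edgeR without the filter each called 1, Tubb4a in RNA of single knockouts against WT plus DKO. For that comparison the members called ranged from 0 to 2 on leaving out each library. For footprints of DKO against Cpeb1KO they ranged from 0 to 1, and the summed paralog groups called in the former comparison from 0 to 1. In the other comparisons both counts stayed at 0. Leaving out a library moved a member's log2 change by at most 0.27, and the fits with all libraries moved it by at most 0.026.

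The called list genes depended more on the processing. The 5 folding genes of the former comparison became 0 without the replicate block, 3 with RLE size factors and 3 without the filter, and ranged from 0 to 7 on leaving out a library. The 1 folding gene of the latter comparison became 0 without the replicate block and 4 with only the 2 genotypes compared, and ranged from 0 to 5 on leaving out a library. Over all list calls, 72 of 138 alternatives kept the call, 66 lost it and none reversed. Stmn1 against WT and against Cpeb1KO kept it in all 5 fits with every library.

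Replicate numbers were not shown to pair the samples: the differences between replicates of 2 genotypes correlated over genes at r from -0.045 to 0.29 in RNA and from -0.075 to 0.33 in footprints. Without the replicate block the calls over all genes fell from 971 to 380 in RNA of single knockouts against WT plus DKO, and in footprints from 365 to 73 (DKO against WT), from 772 to 207 (DKO against Cpeb1KO) and from 46 to 4 (DKO against Fmr1KO). With only the 2 genotypes compared, the calls over all genes were 401 (Fmr1KO) and 71 (Cpeb1KO) in RNA and 1701 and 762 in footprints of DKO against Cpeb1KO and Fmr1KO. In footprints of DKO against WT they fell to 85. DESeq2 called 45 genes in RNA of Cpeb1KO (0 by edgeR), 18 in its translational efficiency (0 by edgeR) and 205 in footprints of DKO against Fmr1KO, where edgeR without the filter called 165. The coefficient of variation of Tuba1c was 74.6% in RNA and 77.5% in footprints with TPM, and 83.5% and 83.8% after dividing by the mean of the replicate number. With 2 libraries a genotype, changes of a member under its interval could not be detected.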
